A study of Mus musculus with 4 samples.

Results

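The genes described here are 10 genes of the Hippo pathway: the coactivators Yap1 and Wwtr1 (which encodes TAZ), the DNA-binding partners Tead1, Tead2, Tead3 and Tead4, the kinases Lats1 and Lats2, and the target genes Ccn1 (also called Cyr61) and Ccn2 (also called Ctgf). They were chosen by name, out of 21887 protein-coding genes. A peak was counted for a gene when its midpoint lay in the gene or within 20 kb of either end. By this rule 9 of the 10 genes had a Slug peak, against 67.5% of all protein-coding genes, and all 10 had a Snail peak, against 71.2%. The 26 Slug peaks and the 37 Snail peaks found in this way overlapped nowhere.

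Slug (gene Snai2) and Snail (gene Snai1) are zinc finger repressors that bind E-box sequences and are known as drivers of the epithelial-mesenchymal transition. The study mapped them by ChIP-seq in 2 lines from mammary tumours of mice that carry the polyoma middle T oncogene under the MMTV promoter: pBl.1G, labelled epithelial with high Slug, and pBl.3G, labelled mesenchymal with high Snail. Neither line was treated, and each gave 1 ChIP library and 1 input library, the inputs without a peak list used here. The Slug library was made with the rabbit monoclonal antibody C19G7. In the pBl.3G library the antibody was one against SNAIL + SLUG, per the labels, so a Snail peak below is a peak of that library and may hold either protein. Line, factor and antibody differ together and cannot be told apart, and with 1 library for each factor no difference between the libraries was tested. Peak lists do not measure expression, so the labelled levels of Slug and Snail and the cell states could not be checked in them.

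In the Hippo pathway a cascade of kinases ends with LATS1 and LATS2, which phosphorylate YAP and TAZ and keep them out of the nucleus. When the kinases are off, YAP and TAZ enter the nucleus, bind TEAD proteins on DNA and switch on genes such as Ccn1 and Ccn2, whose products are secreted matricellular proteins. In mammary cells the pathway reads cell density, junctions and the stiffness of the matrix. TEAD proteins recognise the short sequence GGAATG, and Snail and Slug recognise the E-box CAGGTG.

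The sequences below are the stretches just before the start sites of 4 of the genes, and 30 bases at Lats2, shown because a Snail peak covered each of them and because they hold the motifs searched. They come from the RefSeq promoter table for GRCm38.p6, which is the assembly of mm10, run 5′ to 3′ on the gene's own strand (the minus strand in every case), and leave out bases inside the gene itself. Capitals mark a match to the TEAD motif (GGAATG, or CATTCC where it lies on the other strand) or, at Lats2, to the E-box CAGGTG.
Ccn1, chr3:145649986-145650235: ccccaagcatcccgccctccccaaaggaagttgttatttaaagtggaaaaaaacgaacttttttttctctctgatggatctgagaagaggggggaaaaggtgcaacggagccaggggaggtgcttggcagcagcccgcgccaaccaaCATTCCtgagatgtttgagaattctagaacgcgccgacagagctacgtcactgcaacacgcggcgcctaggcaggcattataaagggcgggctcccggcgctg
Yap1, chr9:8004639-8004846: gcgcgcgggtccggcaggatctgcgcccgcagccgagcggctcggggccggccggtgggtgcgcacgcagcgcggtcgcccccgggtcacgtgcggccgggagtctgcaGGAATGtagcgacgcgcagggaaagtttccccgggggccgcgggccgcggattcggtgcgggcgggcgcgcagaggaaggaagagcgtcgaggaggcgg
Wwtr1, chr3:57575911-57576160: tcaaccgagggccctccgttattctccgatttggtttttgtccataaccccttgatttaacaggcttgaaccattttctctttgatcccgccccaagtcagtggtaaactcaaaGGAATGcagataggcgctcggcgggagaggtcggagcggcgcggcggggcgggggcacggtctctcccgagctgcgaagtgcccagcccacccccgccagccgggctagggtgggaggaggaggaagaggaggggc
Tead3, chr17:28350806-28351055: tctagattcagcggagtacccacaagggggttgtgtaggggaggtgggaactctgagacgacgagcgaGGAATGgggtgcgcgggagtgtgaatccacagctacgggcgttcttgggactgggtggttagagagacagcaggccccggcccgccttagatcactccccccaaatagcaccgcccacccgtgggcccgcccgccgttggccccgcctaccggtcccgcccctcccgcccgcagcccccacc
Lats2, chr14:57746240-57746269: cccagcgcagggCAGGTGgccgcccagcca

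The promoter table, with 250 bases before and 50 after each start, held 7 of the genes, all but Tead1, Tead4 and Ccn2. A Snail peak covered a listed start of all 7, against 49.9% of the 17492 protein-coding genes in the table. Slug peaks covered no start of the 7, against 2.42% of those genes. The Snail peaks spanned the whole 300 bases at 6 of the genes and 233 of them at Tead2.

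TEAD motif matches stood in 5 of these 7 promoters when the most upstream start of each gene was taken. The first base of the match lay 103 bases before the start of Ccn1, 141 before that of Yap1, 136 before that of Wwtr1 and 182 before that of Tead3. At Lats2 the match began at base 5 after the start, and Tead2 and Lats1 had none. Over all 17492 genes 13.5% of such promoters held a match, and over the 8473 with their start under a Snail peak 11% did. Searched on both strands in the same way, CAGGTG was found in 1 of the 7, at Lats2, 134 bases before the start, against 19.3% of all genes and 15.9% of those under a Snail peak. No match of one motif overlapped a match of the other in these 7 promoters. Such matches describe letters in a window of 300 bases and do not show that a factor sits there. The 7 promoters ranged in GC content from 57.0% at Ccn1 to 74.0% at Yap1, above the median of 56.3% over protein-coding promoters.

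**Figure D1:**
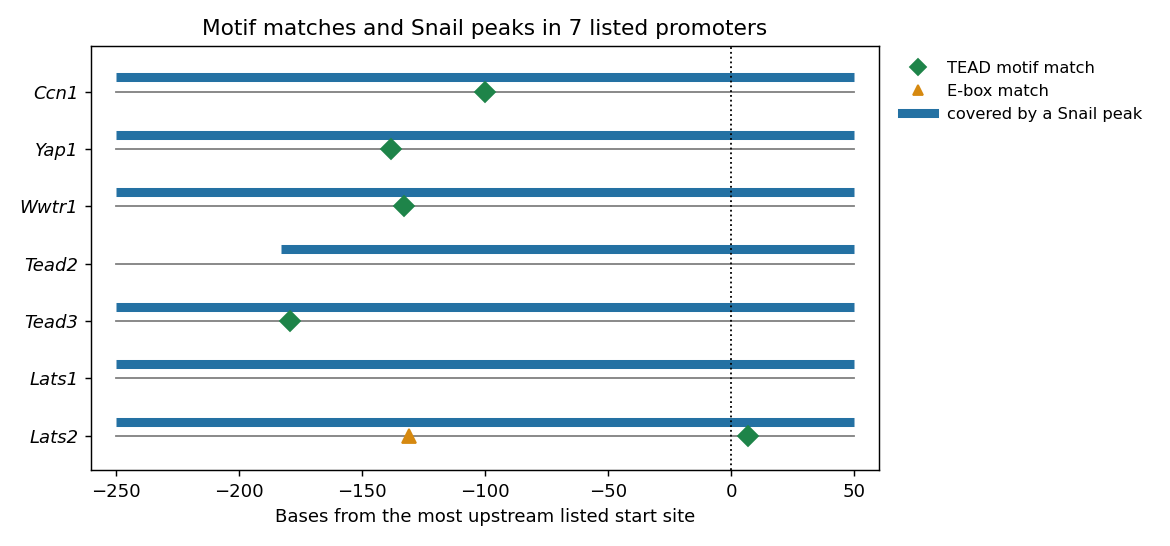
Horizontal lines show the listed promoter of each of 7 genes, from 250 bases before to 50 bases after the most upstream start site (dotted line), with the part under a Snail peak in blue and motif matches as symbols. A TEAD match stands in 5 promoters and an E-box match in that of Lats2, and every start lies under a Snail peak.

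Of the 37 Snail peaks, 11 lay over an end of their own gene. Over the whole list 8819 of 28375 Snail peaks covered an end of some protein-coding gene. Counted by peaks, the share is thus not particular to these genes. Each of the 10 genes had a Snail peak over at least 1 of its ends, against 44.6% of protein-coding genes. No gene of the 10 had a Slug peak over an end, against 2.38% of protein-coding genes. Snail peaks are wider, with a median of 722 bp against 206 bp over the whole lists, and a wider peak covers an end more easily. Counted instead by midpoints within 1 kb of an end, a Snail peak was found for 9 of the 10 genes, against 48.7% of all genes, and a Slug peak for none, against 12.1%.

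Gene length changes these backgrounds, and the 10 genes are spread over the length classes. Protein-coding genes were put into 5 classes of equal size by length, and 23.4% of the shortest class, which hold Ccn1 and Ccn2, had a Snail peak over an end. The share was 53.0% in the class of Tead2 and Tead3, 54.6% in that of Lats1 and Lats2, and 46.6% in that of Yap1, Wwtr1, Tead1 and Tead4. A Slug peak in the gene or its flanks was found for 42.9% of the shortest and 91.6% of the longest genes.

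Within its own list a Snail peak at an end of these genes ranked high. Scores are those of the authors' peak caller and are compared only inside a list, where the Snail median was 151 and the Slug median 81.1. Taking the highest-scoring end-covering Snail peak of each gene, the scores ran from 281 at Ccn1 to 1329 at Ccn2, with a median of 691. All 10 were above the list median. They resemble the 8819 Snail peaks that cover an end of any protein-coding gene, whose median score was 705. The 26 Snail peaks clear of the genes' own ends had a median score of 128, and 12 of them were above the list median. Of these 26, 6 covered an end of another gene, so they are not all away from gene ends. Over the whole list, Snail peaks that covered no end of a protein-coding gene had a median score of 97.1.

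**Figure D2:**
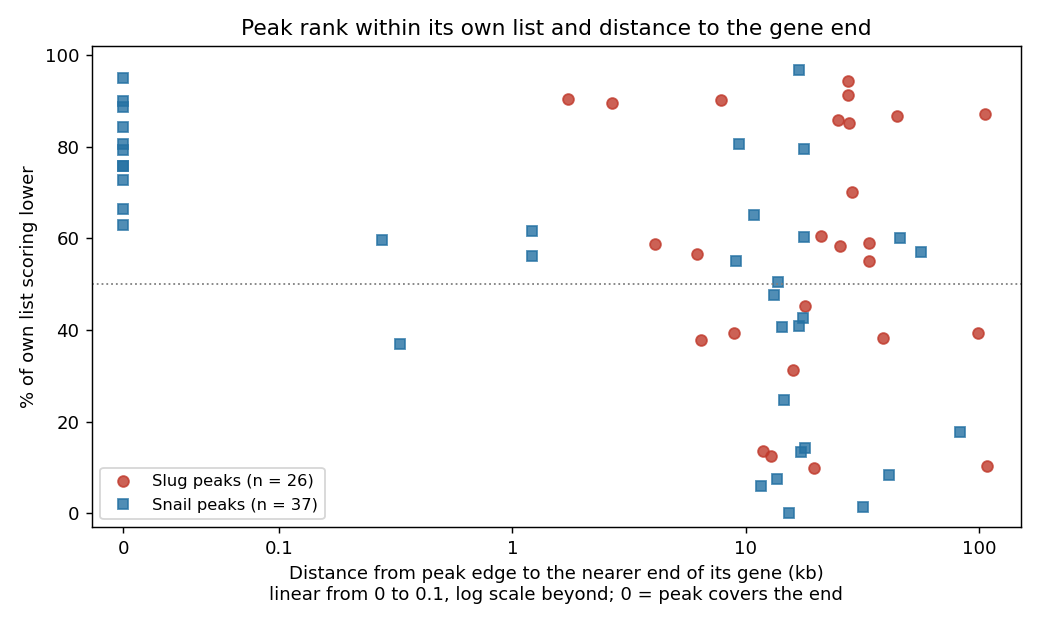
Each point is 1 peak of the 10 genes, placed by the distance in kb from its edge to the nearer end of its gene (0 where it covers the end, log scale farther out) and by the share of its own list that scored lower. The 11 Snail peaks at 0 all lie above the dotted line at 50%, and the Slug peaks begin at 1.74 kb.

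The target genes are short, and each had 1 Slug peak, with 3 Snail peaks at Ccn1 and 2 at Ccn2. Genes of their length class had a median of 0 peaks of either library. Ccn1 (chromosome 3, 145646971 to 145649985) lay under a Snail peak of 3285 bp, at 145647263 to 145650547, that covered its start and most of the gene with a score of 281. The same peak reached an end of the lncRNA gene Gm17501, so it cannot be given to Ccn1 alone. Of the remaining Snail peaks of Ccn1, with scores of 110 and 55.9, both lay at least 13.5 kb outside the gene and within 209 bp of an end of the lncRNA gene Gm40164. Its single Slug peak, 127 bp wide with a score of 52.9, stood 19.5 kb outside the gene, just inside the window. Only 9.96% of Slug peaks scored lower than this one.

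Ccn2 (chromosome 10, 24595442 to 24598683) showed the strongest sites of the pair. Its low-coordinate end lay under the Snail peak at 24595199 to 24596790. The score of this peak, 1329, was higher than 95.1% of the Snail list, and it also covered an end of the lncRNA gene Gm15270. The Slug peak of Ccn2, at 24600418 to 24601161, lay 1.74 kb beyond the other end and 3.63 kb from the Snail peak. It was the widest of the 26 Slug peaks, at 744 bp, and the closest of them to a gene end, and its score of 278 exceeded that of 90.5% of the Slug list. A further Snail peak, 14.6 kb outside the gene, scored 75.8.

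Yap1 and Wwtr1 encode paralogous coactivators without a DNA-binding domain of their own. Yap1 (chromosome 9, 7931999 to 8004638) had 6 Slug peaks, 5 of them inside the gene. Their scores were 291, 274, 129, 97.1, 75.0 and 69.1, and the strongest pair, at 7977078 to 7977347 and 7996534 to 7996797, was in the top 10% of the Slug list. The nearest of them to an end of the gene was 7.84 kb away. The Snail peaks of Yap1 sat elsewhere. A peak at 8004365 to 8005107 with a score of 1036 covered the start, and directly beside it, at 8003251 to 8004363, lay one with a score of 232. The third, with a score of 61.3, was in the far flank, 376 bp from a Slug peak with a score of 75.0, which was the closest approach of the libraries at any of the 10 genes.

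Wwtr1 (chromosome 3, 57455644 to 57575910) had the reverse balance, with 1 Slug and 4 Snail peaks. The Snail peak over its starts, at 57574648 to 57576954, was 2307 bp wide and scored 834. The others lay inside the gene with scores of 240, 203 and 51.1. The Slug peak, at 57500004 to 57500273 with a score of 230, was also deep inside the gene, 44.4 kb from the nearer end. It stood 978 bp from the Snail peak at 57501252 to 57502307, which scored 240.

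The TEAD genes had between 1 and 8 Slug peaks and between 2 and 6 Snail peaks each. Tead1, the longest of the 10 genes at 227 kb (chromosome 7, 112679356 to 112906784), had 8 Slug peaks, 7 of them inside the gene. The highest-scoring, at 112801249 to 112801566 with a score of 234, stood 105 kb from the nearer end. The others scored between 53.0 and 101. Of its 6 Snail peaks, that at 112678321 to 112679500 lay over the low-coordinate end and scored 673, and 1 just inside scored 100.2. Those deeper in or beyond the gene scored 242, 66.4, 56.6 and 54.5.

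Tead4 (chromosome 6, 128227143 to 128300813) carried the highest Slug score of all 10 genes, 359, at 128272997 to 128273334, which is 27.5 kb inside the gene. It exceeded 94.4% of the Slug list. The other Slug peaks of Tead4 scored 89.2 and 67.8, both inside the gene. Its Snail peak over the high-coordinate end, at 128299333 to 128301326, was 1994 bp wide and scored 709, and the only other one scored 62.4.

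The short genes Tead2 and Tead3 lie among close neighbours. Tead2 (chromosome 7, 45215792 to 45233468) had no Slug peak inside the gene. Its Slug peaks, with scores of 92.2 and 62.4, were 6.15 and 15.8 kb outside, and the higher stood 282 bp from an end of the B cell gene Cd37. The start of Tead2 was under the Snail peak at 45215609 to 45216818, which scored 577. Of its other Snail peaks, that with a score of 318 covered an end of Kash5 and that with a score of 195 lay 1.22 kb beyond Tead2.

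Tead3 (chromosome 17, 28331671 to 28350805) had the densest Snail peaks of the 10 genes, 6 in its window or 10.1 per 100 kb. Both ends were covered. The peak over all 3 listed starts, at 28349822 to 28351637, scored 500.3 and reached an end of Tulp1, and the peak over the opposite end scored 347 and reached Rpl10a, a ribosomal protein gene. Flank peaks with scores of 686 and 260 covered ends of Fance and Rpl10a, and the remaining ones scored 186 and 117. The single Slug peak of Tead3, at 28347852 to 28348143, scored 263, stood 2.66 kb inside the gene from its first start and was 1.68 kb from a Snail peak.

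Among the kinase genes, Lats1 was the only one of the 10 genes without a Slug peak in its window. The nearest, with a score of 54.8, lay 29.2 kb from an end. Lats1 (chromosome 10, 7681200 to 7716461) had 4 Snail peaks, with scores of 1494, 984, 716 and 139, and none had its midpoint inside the gene. The peak with a score of 984, at 7680395 to 7681464, covered the start of Lats1 together with an end of Pcmt1, which encodes a protein repair methyltransferase. The other 3 covered ends of neighbouring genes. The highest, at 7662551 to 7664335, was at the lncRNA gene A630066F11Rik, and the others were at Katna1 and Nup43.

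Lats2 (chromosome 14, 57689662 to 57746212), which is itself a known target of YAP, had 3 Slug peaks, all inside the gene. Those at 57714493 to 57714750 and 57717288 to 57717530 scored 222 and 214, both above 85% of the list, and the third scored 54.2. They were at least 11.8 kb from an end and 10.9 kb from any Snail peak. The Snail peak over the high-coordinate end, at 57745836 to 57746845, scored 578, and it held the E-box shown above. It covered the first but not the second of the 2 listed starts of Lats2. The other Snail peaks scored 153, 111 and 50.01, the last at the lower limit of the list.

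**Figure D3:**
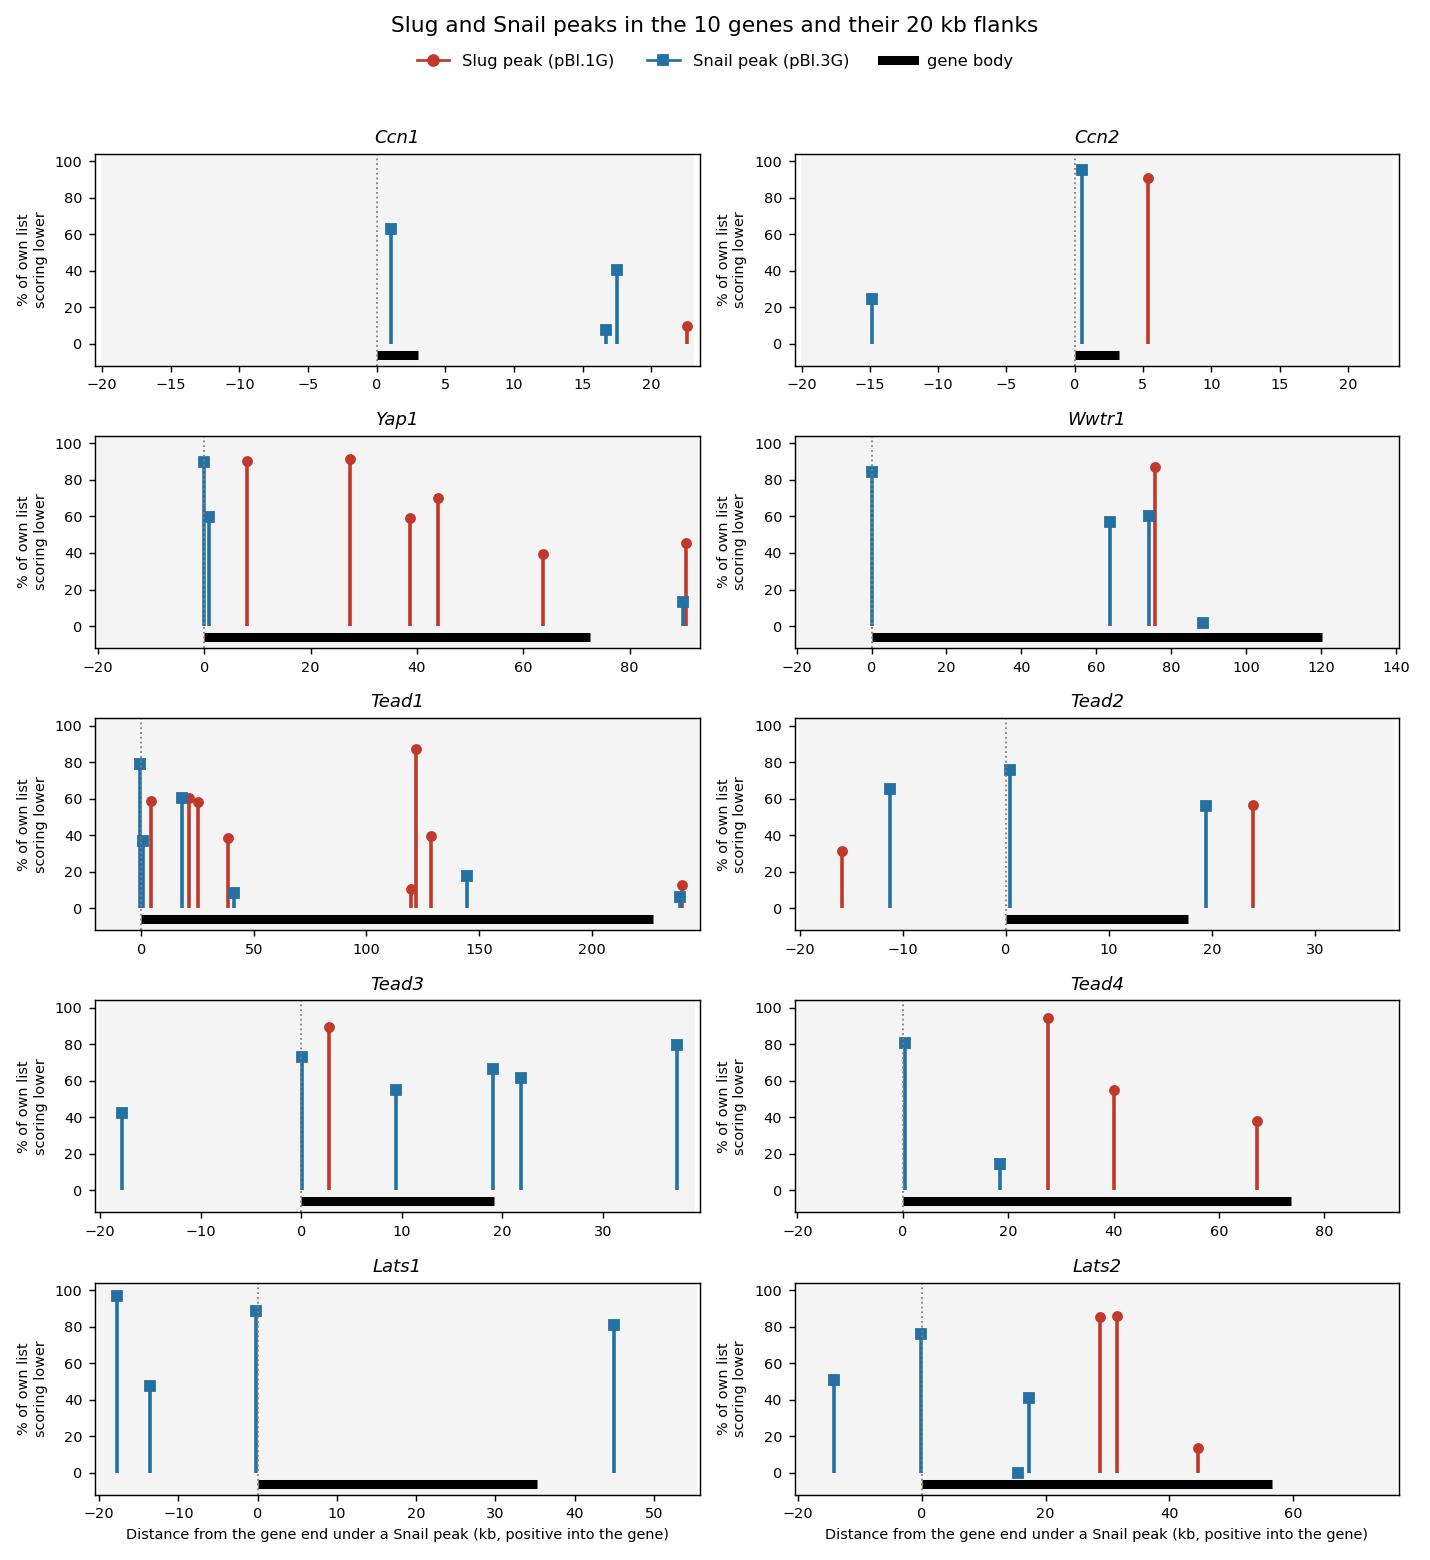
Each panel maps 1 gene (black bar) with its 20 kb flanks, as the distance in kb from the gene end under its Snail peak, positive into the gene. The height of each Slug (red) and Snail (blue) peak is the share of its own list that scored lower. A Snail peak stands at 0 in every panel. No Slug peak covers an end, as at all but 2.38% of protein-coding genes, and Lats1 has no Slug peak in its window.

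The peaks of the libraries lay apart at all 9 genes with peaks of both. In the windows of all 10 genes 0 of 26 Slug peaks overlapped a Snail peak by 1 bp, a count that allows a share of up to 11.5% (counting error only), and 0 of 37 Snail peaks overlapped a Slug peak, which allows up to 8.11%. Over the windows of all protein-coding genes 14.4% of Slug and 15.5% of Snail peaks were shared. The share of genes with peaks of both libraries was 55.4% of all protein-coding genes, and 42.3% of these had at least 1 overlapping pair. Lack of overlap was thus the more common state of a gene with both. Among genes with at least 6 Slug and 3 Snail peaks, as Yap1 and Tead1 have, 77.9% had such a pair. Yap1, with 6 and 3, stands at the lower limit of this class, whose other genes had at least as many peaks, so the share is not a like comparison. Between a Slug peak of the 10 genes and the nearest Snail peak the gap ran from 376 bp to 42.4 kb, with a median of 7.48 kb, and 3 of the 26 gaps were under 1 kb, at Yap1, Wwtr1 and Tead1. The number of peaks is small, and both limits rest on the same absence of overlapping pairs. They also treat peaks as independent, although those of each factor come from 1 library and several lie in the same gene. Neither limit therefore excludes the general share, and the absence of overlap is a description of these genes.

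The genes were also compared by peaks per length of window, since long windows hold more. Slug peaks per 100 kb of window ran from 0 at Lats1 to 5.33 at Yap1, with a median of 2.48 against 1.78 over protein-coding genes. Snail peaks ran from 1.76 at Tead4 to 10.1 at Tead3, with a median of 4.38 against 2.07. Of the 26 Slug peaks 20 had their midpoint inside a gene, and of the 37 Snail peaks 19 did. Of the 14 Snail peaks in the flanks that left the genes' own ends uncovered, 6 covered an end of another gene. The matching shares over all protein-coding genes were not counted, so neither split can be called particular to these genes. In long genes the body is also most of the window, as at Tead1 with 227 of 267 kb.

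A further 49 genes of the pathway, listed by role, gave the setting for these 10. Slug peaks lay near 42 of them (85.7%, against 67.5% of all protein-coding genes), Snail peaks near 46 (93.9%, against 71.2%) and peaks of both near 39 (79.6%, against 55.4%). Of the 49 genes 23 were in the longest class by length, where the shares were 91.6% for Slug and 81.6% for Snail. Snail peaks covered an end of 30 (61.2%, against 44.6%), and a Slug peak covered an end of 1, the TEAD cofactor gene Vgll4. Of the 39 with both, 19 (48.7%, against 42.3%) had at least 1 overlapping pair, and 13.8% of the Slug peaks counted over the 49 genes were shared. Overlapping pairs, absent at the 10 genes, were thus present at some but not most genes of the wider pathway list, and the difference was not tested.

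**Figure D4:**
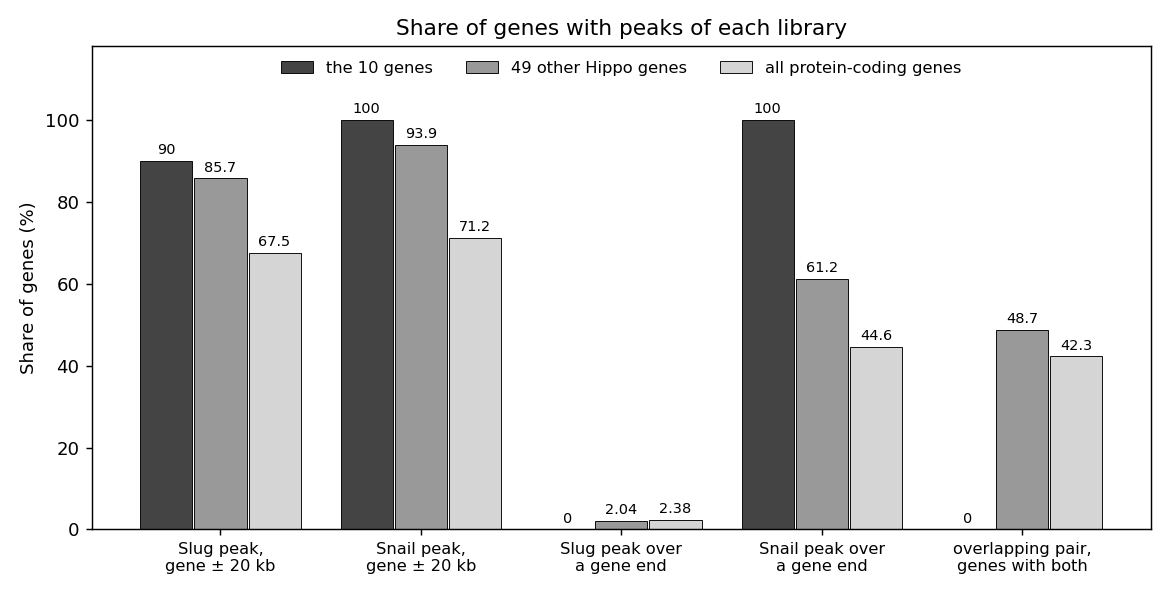
Bars give the share in percent of the 10 genes, of the 49 other Hippo genes and of all protein-coding genes that had a peak in the gene or its 20 kb flanks, a peak over a gene end or, among genes with peaks of both libraries, an overlapping pair. The 10 genes stand at 100% for Snail over an end, against 44.6% of all protein-coding genes. The 9 with peaks of both libraries stand at 0 for an overlapping pair, against 42.3% of all protein-coding genes with both.

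Amotl2 and Ptpn14 stand in 2 of the role lists and are counted in each. By role, all 14 upstream kinase and adaptor genes had a Snail peak and 12 a Slug peak, against 71.2% and 67.5% of all protein-coding genes. An end of 10 of them was under a Snail peak (71.4%, against 44.6%). Mob1a and Mob1b, adaptors of the LATS kinases, were those without a Slug peak, and their highest Snail scores were 1076 and 1453. The Mob1a peak with that score, at 83316832 to 83317787, lay in the flank, outside the gene at 83326034 to 83342812. Taok1, a kinase upstream of the cascade, had a Snail score of 1902 and an overlapping Slug peak with a score of 397. Tnik, a gene of 409 kb, had 18 Slug peaks, the highest at 543, and its 2 Snail peaks scored at most 92.9.

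All 10 membrane and junction regulators had a Snail peak and 8 a Slug peak, against 71.2% and 67.5% of all protein-coding genes. Dchs1 and Wtip lacked a Slug peak. Ptpn14, a phosphatase that holds YAP in the cytoplasm, had 12 Slug and 4 Snail peaks, whose highest scores were 1382 and 1188. Limd1, a LIM protein that restrains LATS, had scores of 2394 for Slug and 1917 for Snail at overlapping sites, each above 99% of its own list. These sites, within 123461619 to 123462392 on chromosome 9, lay in the flank, outside the gene at 123478661 to 123521552. Among the 49 genes, those with a peak in the top 10% of both lists were Wwc2, Taok1, Ptpn14, Limd1 and Axl.

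Of the 4 TEAD cofactor genes of the Vgll family, Slug peaks lay near all and Snail peaks near 2, against 67.5% and 71.2% of all protein-coding genes. Vgll1 and Vgll2 had no Snail peak. Vgll4, which encodes a repressor that competes with YAP for TEAD proteins, had 9 Slug and 10 Snail peaks.

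Among 19 other YAP and TAZ targets each library had a peak near 18 (94.7%), against 67.5% of all protein-coding genes for Slug and 71.2% for Snail. An end of 14 was under a Snail peak (73.7%, against 44.6%). Foxf2 lacked a Slug peak and Fjx1 a Snail peak. High Snail scores were those of Nt5e, 1477, and of the stress response gene Gadd45a, 1245. The highest Slug score was that of Ptpn14, 1382, given above, and the next were those of Arhgef17, 744, and Rbms3, 637. Rbms3 is 1057 kb long and had 38 Slug peaks. The Arhgef17 peak, at 100863529 to 100864102, overlapped a Snail peak and lay in the flank, outside the gene at 100869746 to 100932161. Of the remaining Ccn genes, Ccn3, Ccn4, Ccn5 and Ccn6, all 4 had a Snail peak, against 71.2% of all protein-coding genes. Only Ccn4 had one over an end, against 44.6%. Ccn3 and Ccn5 had no Slug peak, whereas 67.5% of all genes had one. No Slug peak overlapped a Snail peak at any Ccn gene, but none of these genes had more than 1 Slug peak. Over all genes with peaks of both libraries 42.3% had an overlapping pair, so this absence cannot be called particular to the Ccn genes. The Snail peak of Ccn3, with a score of 51.3, was near the lowest accepted.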

How the data were processed

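ChIP-seq peak lists of 2 libraries, 1 for Slug in pBl.1G and 1 for Snail in pBl.3G, were used, with 41612 and 28375 peaks. Per the labels, fixation was in 1% formaldehyde for 10 min and sonication gave DNA of about 200 to 500 bp. Per the submitters' processing notes, reads were handled with Bowtie, MACS 1.4.2 and mm10. The settings and the control of the peak calls were not given in the sources used here. The deposited files give for every peak its position and a score by the authors' peak caller, whose scale the files do not state and which starts at 50 in both lists. Depth is unknown, and peak heights were not used here.

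Genes came from RefSeq for GRCm38.p6, the assembly of mm10, and start sites and promoters from its promoter table. Gene ends were used where no start was listed. Peak starts were converted to 1-based positions. Peaks sharing at least 1 bp were called overlapping. Counting was done in Python 3.11.15 with numpy 2.4.6 and pandas 2.3.3, plots with matplotlib 3.10.9, and the counting was tested on simulated peaks. The 10 genes, the pathway lists and the measures were chosen with earlier results of these data known. Named among the 49 other genes were those with a peak in the top 10% of a list or without a peak of 1 list, of which examples are given, and those counted in small categories. The alternatives tried were other windows, score limits, list lengths and overlap rules.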

Additional observations from a re-analysis of the deposited data

How the results depend on the processing

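Under 39 alternatives of 10 counts, 37 stayed within 1.5 times the value reported, but some of these could not have moved, as given below. A score of at least 100 keeps 39.7% of Slug and 63.0% of Snail peaks. With it the Slug peaks of the 10 genes fell from 26 to 11, since most scored lower. Ccn1 and Tead2 then had none, which left 7 genes with a Slug peak, against 43% of all genes. With gene bodies alone the Snail peaks fell from 37 to 19, because flank peaks drop out. Then 6 genes had a Slug peak, against 36.5% of all genes, and 6 had peaks of both libraries, against 24.5%. Within 10 kb Ccn1 had no Slug peak, and 8 genes had peaks of both libraries, against 44.6% of all genes. No overlap between the libraries appeared in the 6 alternatives run for it, but these could not show one. They removed peaks, tightened the overlap rule or kept the same 26 Slug and 37 Snail peaks. With midpoints within 1 kb of an end, 9 of the 10 genes had a Snail peak, against 48.7% of all genes, and Ccn1 dropped out. The score limit and equal list lengths left all 10 with a Snail peak over an end, but could not have changed that count. Each gene had such a peak with a score of at least 281, and equal lengths keep the whole Snail list. With only the 250 bases before the start searched, TEAD matches stood in 4 of 7 promoters, without Lats2, against 11.6% of all genes. The alternatives on gene ends and promoters were chosen after seeing the data. No paired analysis was possible because each factor has 1 library. Score limits may not be equally strict in both lists, and the depth of neither library is known.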
